A study of Mus musculus with 12 samples.

Results

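Fc gamma receptors bind the constant part of IgG, and the 6 genes described here encode the mouse members of this family together with its signalling chain and the related transport receptor: *Fcgr1*, *Fcgr2b*, *Fcgr3*, *Fcgr4*, *Fcer1g* and *Fcgrt*. They were taken by symbol from count tables of 26699 gene symbols, and all 6 were among the 11927 genes that passed the filter on low counts. The 12 libraries came from synovium of adult wild-type C57BL/6 mice (C57BL/6J in the methods of the study), dissected whole and kept as explants for 4 h with 100 nM CGRP, a neuropeptide of pain-sensing nerves, or with vehicle (labelled control or Healthy). After collagenase digestion, 2 macrophage subsets were sorted, IAIE (MHCII+ CD11c-) and CD11c (CD11c+ MHCII+), which gave 4 groups of 3 libraries. The lining population with LYVE1 lay outside both gates. The labels do not say whether the 3 libraries of a group came from separate mice, so the p-values measure the spread between libraries, which may be technical. The study's flow cytometry protocol adds antibody to CD16 and CD32, the products of *Fcgr3* and *Fcgr2b*, to the cell suspension before staining, in every group alike.

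FcγRI (*Fcgr1*), FcγRIII (*Fcgr3*) and FcγRIV (*Fcgr4*) are activating receptors that signal through the common γ-chain (*Fcer1g*), whose ITAM motif recruits the kinase Syk when immune complexes crosslink the receptors. FcγRIIB (*Fcgr2b*) is the inhibitory receptor: its ITIM motif recruits the phosphatase SHIP1 (*Inpp5d*) and raises the amount of crosslinking that a cell needs before it responds. The neonatal Fc receptor FcRn (*Fcgrt*) pairs with β2-microglobulin and returns IgG from endosomes to the cell surface. In macrophages these receptors drive phagocytosis of IgG-coated particles, and in the joint they are known for their part in arthritis caused by immune complexes.

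On GRCm38 (mm10), 4 of the 6 genes lie together on chromosome 1: *Fcgr2b* at 170958617 to 170976547 on the minus strand, *Fcgr4* at 171018920 to 171029761 on the plus strand, *Fcgr3* at 171051174 to 171064935 on the minus strand and *Fcer1g* at 171229572 to 171234365 on the minus strand. *Fcgr1* lies on chromosome 3 at 96282909 to 96293969 and *Fcgrt* on chromosome 7 at 45092990 to 45103851, both on the minus strand. All 6 are annotated as protein-coding. *Fcgr2b* and *Fcgr3* share sequence. Of the 31-base words in the exons of *Fcgr3*, 13.4% also occur in *Fcgr2b*, and 4.15% of the *Fcgr2b* words occur in *Fcgr3*. The longest identical stretch of their coding sequences is 129 bases, at 278 to 406 of the 1020 coding bases of *Fcgr2b* and 263 to 391 of the 801 of *Fcgr3*. The study's reads were longer than this run before trimming, so only a shortened read can lie wholly inside it. The run is shown because a read lying inside it cannot be assigned to either gene by its sequence:
*Fcgr2b* and *Fcgr3*, shared coding run: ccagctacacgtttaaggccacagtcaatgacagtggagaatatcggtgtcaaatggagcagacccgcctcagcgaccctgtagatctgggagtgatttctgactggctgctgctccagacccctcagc
No 31-base word of *Fcgr1* or *Fcer1g* occurs in another gene, and none of the other coding pairs shares an identical run over 14 bases. An antisense gene model, Gm38204, overlaps 2.68% of the exonic bases of *Fcgr2b*, and the strand setting of the counting is not given in the sources used here.

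The 250 bases before the transcript start are shown for the 3 receptor genes whose counts rose and for *Fcgr4*, whose counts did not pass the test (RefSeq, GRCm38.p6, read 5′ to 3′ along the gene, capitals marking the motif matches named after them). RefSeq gave promoters for all 6 genes, with 2 starts for *Fcgr3*, of which the first is shown, and the RefSeq starts of *Fcgr2b* and *Fcgr3* lie inside the GENCODE gene spans given above:
*Fcgr1*, chr3:96293970-96294219, minus strand: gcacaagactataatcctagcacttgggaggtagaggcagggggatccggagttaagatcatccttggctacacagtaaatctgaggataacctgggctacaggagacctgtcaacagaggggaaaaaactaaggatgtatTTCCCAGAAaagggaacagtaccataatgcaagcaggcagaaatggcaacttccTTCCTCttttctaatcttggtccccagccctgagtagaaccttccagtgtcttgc
*Fcgr2b*, chr1:170976072-170976321, minus strand: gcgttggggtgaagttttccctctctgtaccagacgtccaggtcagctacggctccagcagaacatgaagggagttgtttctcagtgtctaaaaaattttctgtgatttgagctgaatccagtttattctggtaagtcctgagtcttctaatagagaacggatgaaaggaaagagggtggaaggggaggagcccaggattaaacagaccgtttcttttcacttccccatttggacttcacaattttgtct
*Fcgr3*, chr1:171059404-171059653, minus strand: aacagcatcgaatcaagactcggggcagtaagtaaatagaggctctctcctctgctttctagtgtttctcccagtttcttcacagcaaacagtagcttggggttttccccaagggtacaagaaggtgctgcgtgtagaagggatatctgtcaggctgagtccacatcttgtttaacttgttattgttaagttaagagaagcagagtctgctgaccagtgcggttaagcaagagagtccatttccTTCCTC
*Fcgr4*, chr1:171018676-171018925, plus strand: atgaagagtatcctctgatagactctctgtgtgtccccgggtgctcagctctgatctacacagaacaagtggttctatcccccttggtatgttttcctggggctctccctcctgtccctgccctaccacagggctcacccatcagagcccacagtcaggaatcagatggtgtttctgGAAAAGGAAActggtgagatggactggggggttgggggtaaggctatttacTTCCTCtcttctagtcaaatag
Motifs with the letters TTCNNNGAA (STAT), TTTC, any 2 bases, TTTC (interferon response), GAGGAA (PU.1) and TGACG (CREB half-site) were searched on both strands, and matches of different motifs may overlap. *Fcgr1* holds the STAT letters as TTCCCAGAA 109 bases before its start, which 7.02% of 32851 promoters hold somewhere in the same window, and the PU.1 letters 55 bases before it. *Fcgr3* holds the PU.1 letters 6 bases before the start shown, and *Fcgr4* 22 bases before its own. PU.1 letters occur in 23.3% of all promoters. *Fcgr4* also holds the interferon response letters 73 bases before its start, found in 2.98% of promoters. *Fcgrt* holds the CREB half-site 81 bases before its start, found in 17.8%, and no match lay in the windows of *Fcgr2b* and *Fcer1g*. These matches describe letters and not binding.

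Total counts ran from 2127191 to 4465508 in the control libraries and from 4009081 to 5649698 in the CGRP libraries, so the CGRP libraries were mostly deeper, and the part of depth in the results was not tested beyond scaling. Levels are given as CPM (a gene's counts scaled to a common library size, with TMM factors), and 3 counts in a library corresponded to 0.534 to 1.34 CPM. *Itgax*, which encodes CD11c, measured 219 to 270 CPM in CD11c control libraries against 1.24 to 10.7 in IAIE control libraries, and *H2-Ab1* was at least 2085 CPM in every library, in keeping with the gates named in the labels. With CGRP, *Itgax* was lower in CD11c cells (log2 -1.03 ± 0.30, edgeR adjusted p = 0.0288) and *H2-Ab1* lower in both subsets (-0.74 ± 0.11 and -0.66 ± 0.11), so the sorted proteins' own mRNAs moved with treatment. All 8 macrophage markers were detected in every group, with summed levels of 6400 to 8128 CPM in control and 5228 to 6565 after CGRP for IAIE cells, and 2576 to 3049 and 1995 to 2851 for CD11c cells. Of the 8 B cell markers, 5 to 7 exceeded 3 counts in a library of each group; in IAIE cells their summed level was 172 to 284 CPM in control and 81.5 to 124 after CGRP, and in CD11c cells 36.7 to 57.3 and 7.12 to 17.3, with *Jchain* at 0 in CD11c control. Of the 8 neutrophil markers, which stand for cells that carry FcγRIII and FcγRIV, the summed levels were 53.3 to 185, 83.1 to 164, 18.8 to 197 and 20.5 to 101 CPM in IAIE control, IAIE CGRP, CD11c control and CD11c CGRP libraries, with *Ly6g* at 0 in IAIE control and CD11c CGRP. Mast cell markers summed to 6.82 to 85.1, 1.70 to 51.6, 11.9 to 153 and 47.5 to 117 CPM, and the high-affinity IgE receptor subunits *Fcer1a* and *Ms4a2* reached at most 6 and 2 counts in a library. The 6 monocyte markers summed to 1634 to 2099 CPM in control and 1409 to 1661 after CGRP in IAIE cells, and to 495 to 648 and 462 to 615 in CD11c cells. T and NK cell markers summed to at most 8.89 CPM. Fibroblast markers summed to 169 to 1383 CPM in control and 52.2 to 1571 after CGRP in IAIE cells, where 3 of 6 tested markers were called lower (median log2 -2.22), and to 24.5 to 35.6 and 74.9 to 388 CPM in CD11c cells, where 2 were called higher (median 3.15). For 1 of these markers the CGRP change differed between the subsets. Endothelial markers summed to 15.2 to 21.5 CPM in control and 29.4 to 37.7 after CGRP in IAIE cells, and to 20.2 to 183 and 24.5 to 103 in CD11c cells. Dendritic cell markers summed to 621 to 775 CPM in the CD11c libraries and 92.6 to 171 in the IAIE libraries. The part of any of these cells in the results was not tested, and in bulk samples fewer cells of a type and less RNA per cell cannot be told apart.

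With CGRP, *Fcgr1*, *Fcgr3* and *Fcgr2b* rose in both subsets, while *Fcgr4*, *Fcer1g* and *Fcgrt* did not pass the test in either. *Fcgr1*, the high-affinity receptor for IgG2a, measured 97.7, 109 and 108 CPM in the 3 IAIE control libraries and 315, 249 and 257 CPM after CGRP. In CD11c cells it measured 20.8, 60.1 and 32.2 CPM in control and 156, 109 and 132 CPM after CGRP. Every CGRP library lay above every control library of its subset, and the CD11c control libraries spread more widely around their mean (37.7 ± 20.2 CPM, SD, n = 3) than the IAIE control libraries (105 ± 6.22). The log2 fold change was 1.38 ± 0.24 (SE) in IAIE cells, a 2.61-fold rise (edgeR adjusted p = 6.97e-04). In CD11c cells it was 1.78 ± 0.25, a 3.44-fold rise (edgeR adjusted p = 5.96e-05).

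*Fcgr3*, the low-affinity activating receptor, measured 274, 236 and 222 CPM in IAIE control and 397, 335 and 439 CPM in IAIE CGRP libraries. In CD11c cells the values were 175, 212 and 174 CPM in control and 532, 458 and 495 CPM after CGRP. Neither pair of groups overlapped, and the CD11c CGRP libraries held the highest *Fcgr3* levels of all 12. The rise was 0.68 ± 0.14 on the log2 scale in IAIE cells (1.60-fold, edgeR adjusted p = 0.00262) and 1.41 ± 0.14 in CD11c cells (2.65-fold, edgeR adjusted p = 2.51e-06).

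*Fcgr2b*, the inhibitory receptor, followed the same order. Its levels were 255, 230 and 218 CPM in IAIE control, and 344, 296 and 365 CPM in IAIE CGRP libraries. The CD11c libraries measured 204, 206 and 167 CPM in control and 484, 401 and 451 CPM after CGRP. Groups again did not overlap within a subset. The log2 rise was 0.51 ± 0.13 in IAIE cells (1.43-fold, edgeR adjusted p = 0.0163) and 1.21 ± 0.13 in CD11c cells (2.32-fold, edgeR adjusted p = 5.78e-06). The IAIE call for *Fcgr2b* did not hold without IAIE control library 3 (edgeR adjusted p = 0.0510), without IAIE CGRP library 3 (0.0718), or with 1 surrogate variable estimated from unscaled counts (0.0602). B cells carry FcγRIIB as well. Their summed markers, given above, were lower with CGRP in both subsets, and their part in the *Fcgr2b* values was not tested.

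**Figure D1:**
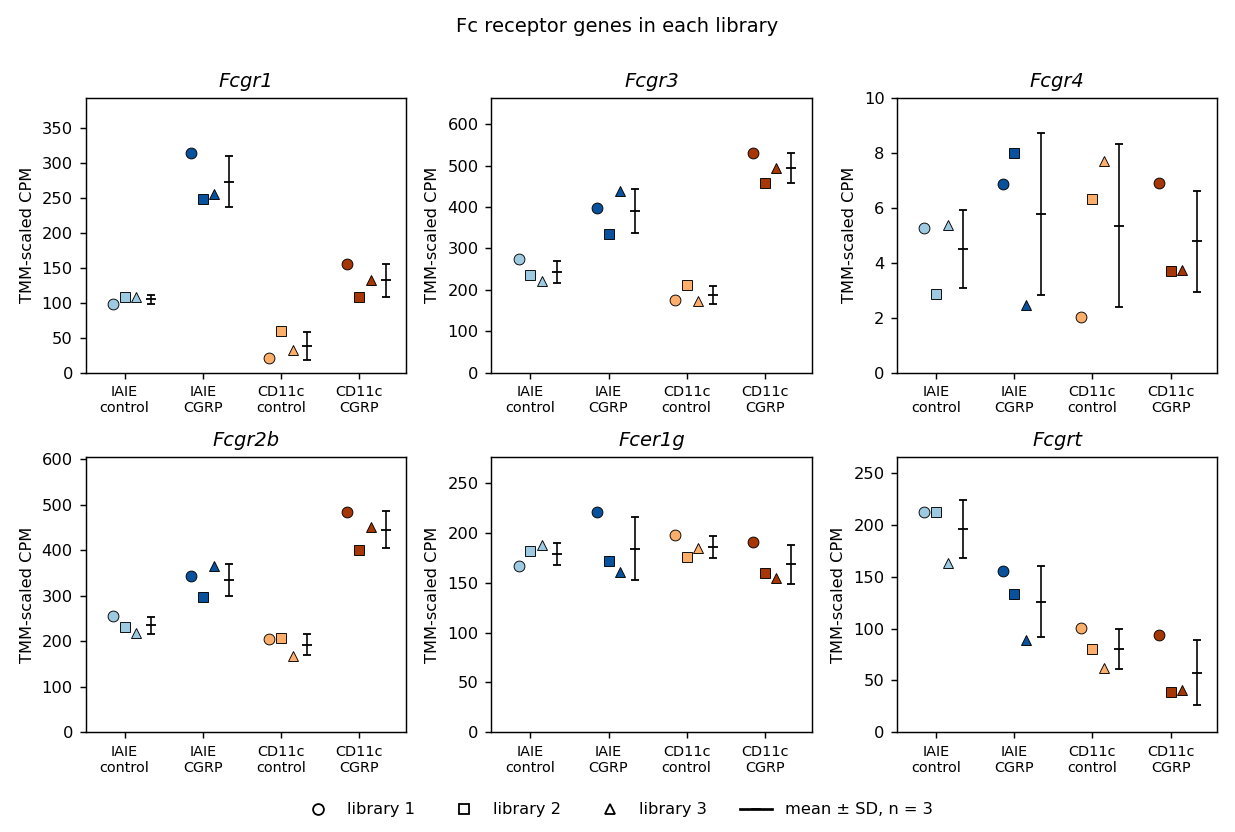
Level of each Fc receptor gene in each of the 12 libraries (y axis, TMM-scaled CPM from 0; x axis, the 4 groups; circles, squares and triangles are libraries 1, 2 and 3 of a group, and bars the mean ± SD, n = 3). For *Fcgr1*, *Fcgr3* and *Fcgr2b* every CGRP library lies above every control library of its subset, whereas the *Fcgr4* groups overlap at 2.04 to 8.02 CPM.

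*Fcgr4*, which binds IgG2a and IgG2b, was scarce, with 5 to 36 counts in a library and levels between 2.04 and 8.02 CPM. Control and CGRP libraries overlapped in both subsets, and the interval of 2 SE around its log2 change ran from -0.79 to 1.51 in IAIE cells and from -1.31 to 0.91 in CD11c cells. The data did not separate changes inside these intervals from no change.

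*Fcer1g*, the shared signalling chain, had similar levels in the 4 groups, with IAIE means of 179 ± 11.2 CPM in control and 185 ± 32.0 after CGRP, and CD11c means of 186 ± 11.0 and 169 ± 19.7 (SD, n = 3). Its log2 change with CGRP was 0.04 ± 0.14 in IAIE cells (edgeR adjusted p = 0.905) and -0.14 ± 0.14 in CD11c cells (edgeR adjusted p = 0.632). The intervals of 2 SE, -0.24 to 0.33 and -0.42 to 0.14, left out changes as large as those of *Fcgr3* in the same cells. The sign of the IAIE value turned under upper-quartile scaling (-0.0070) and with GC content and length offsets (-0.13).

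*Fcgrt* measured 212, 212 and 163 CPM in IAIE control and 156, 134 and 89.0 CPM in IAIE CGRP libraries, which did not overlap. In CD11c cells it measured 100.4, 80.0 and 61.6 CPM in control and 93.4, 38.4 and 40.4 CPM after CGRP, where the groups overlapped through CD11c CGRP library 1. The log2 differences, -0.64 ± 0.27 in IAIE cells (edgeR adjusted p = 0.170) and -0.48 ± 0.28 in CD11c cells (edgeR adjusted p = 0.355), did not pass the test. With CD11c CGRP library 1 left out, the CD11c difference was -1.05 (edgeR adjusted p = 0.00623). This was the only 1 of 12 fits with a library left out that passed, and their differences ran from -1.05 to -0.26. The IAIE difference was -0.67 when the replicate number was a block (edgeR adjusted p = 0.0238). The distances of same-numbered IAIE control and CGRP libraries from their group means correlated at only 0.058, -0.029 and -0.032.

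Over the family, 3 of 6 members passed the test in IAIE cells, all higher after CGRP, against 9.21% of all tested genes in either direction and 5.32% higher. In CD11c cells the same 3 members passed, again all higher, against 10.9% of tested genes in either direction and 6.29% higher. Of all tested genes, 3.25% were called higher in both subsets. In IAIE cells 4 members and in CD11c cells 3 did not overlap between control and CGRP, a pattern met by 24.9% and 29.2% of tested genes. The median log2 change of the 6 members was 0.44 in IAIE and 0.54 in CD11c cells, beside -0.02 and 0.00 over all tested genes. Over all genes, 750 were higher and 548 lower in CD11c cells, a split that became 675 and 767 with GC content and length offsets, under which *Fcgr1*, *Fcgr3* and *Fcgr2b* still passed as higher.

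Without CGRP, *Fcgr1* and *Fcgrt* were lower in CD11c than in IAIE cells, and the other members did not pass the test. This comparison asks how the subsets differed in explants kept with vehicle. *Fcgr1* differed by -1.45 ± 0.25 on the log2 scale (2.72-fold lower, edgeR adjusted p = 3.05e-04) and *Fcgrt* by -1.29 ± 0.28 (2.45-fold lower, edgeR adjusted p = 0.00242), both without overlap of the libraries, as in 34.2% of tested genes. *Fcgr3* (-0.38 ± 0.14, edgeR adjusted p = 0.0522) and *Fcgr2b* (-0.29 ± 0.13, edgeR adjusted p = 0.139) also lay lower in every CD11c library. *Fcgr3* passed in 5 of 25 alternative fits, among them GC content and length offsets (edgeR adjusted p = 0.00938) and DESeq2 (adjusted p = 0.0352). *Fcer1g* (0.06 ± 0.14) and *Fcgr4* (0.30 ± 0.58) overlapped between subsets. The 2 calls among 6 members compare with 21.2% of tested genes called in either direction and 10.9% called lower. The summed macrophage and monocyte markers were also lower in the CD11c libraries, by the ranges given above. All 8 macrophage markers were called lower in CD11c control, but of 6 monocyte markers 1 was called lower and 1 higher. Also called lower were 5 of 7 tested B cell, 5 of 6 fibroblast and 2 of 7 neutrophil markers. Called higher were 3 of 6 tested dendritic cell, 1 of 6 mast cell and 1 of 6 endothelial markers. The part of these cells in the differences was not tested.

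After CGRP, *Fcgr1* and *Fcgrt* were again lower in CD11c cells, and *Fcgr2b* was higher there. The log2 differences were -1.05 ± 0.23 for *Fcgr1* (edgeR adjusted p = 0.00302), -1.13 ± 0.28 for *Fcgrt* (edgeR adjusted p = 0.00743) and 0.41 ± 0.13 for *Fcgr2b* (edgeR adjusted p = 0.0341). *Fcgr3* lay higher in every CD11c library by 0.34 ± 0.13 (edgeR adjusted p = 0.0920), and passed with the explant as a block (edgeR adjusted p = 0.0405), where same-numbered CGRP libraries of the 2 subsets deviated together. These 3 calls of 6 members stand beside 16.9% of tested genes, 8.36% higher and 8.51% lower, and the libraries of *Fcgr1*, *Fcgr2b* and *Fcgr3* did not overlap, as in 34.8%. The *Fcgr2b* call was lost with 1 surrogate variable (edgeR adjusted p = 0.0963) and without IAIE control library 2, IAIE CGRP library 1 or 2, or CD11c CGRP library 1 or 3 (edgeR adjusted p of 0.0548 to 0.165). The *Fcgrt* call was lost without CD11c CGRP library 3 (edgeR adjusted p = 0.0514).

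**Figure D2:**
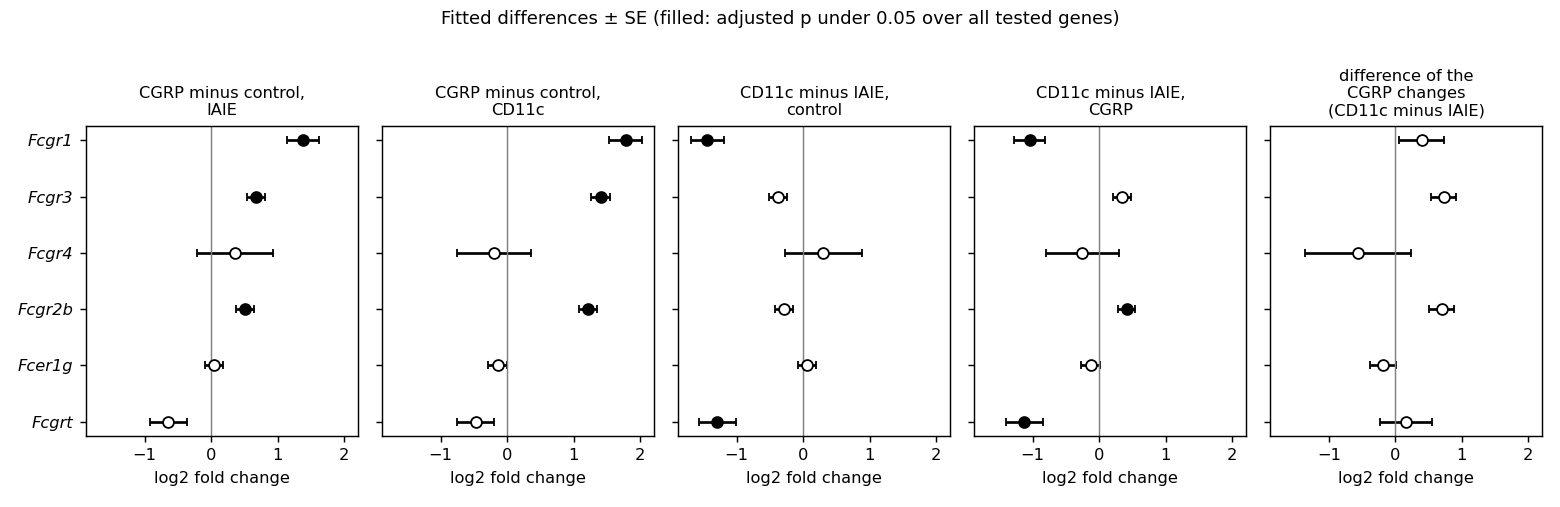
Fitted log2 fold changes of the 6 genes (x axis, log2 scale; points with SE bars) in the 4 pairwise comparisons and for the difference between the subsets' CGRP changes. Filled points had an edgeR adjusted p under 0.05 over all 11927 genes: *Fcgr1*, *Fcgr3* and *Fcgr2b* are filled and to the right of 0 with CGRP in both subsets, and no point is filled in the last panel.

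The subset difference of *Fcgr2b* and *Fcgr3* thus changed sign: every CD11c library lay below every IAIE library in control and above every IAIE library after CGRP. This pattern was found in 35 tested genes, 0.293% of all. The difference between the CGRP changes was 0.70 ± 0.19 for *Fcgr2b* (unadjusted p = 0.00129 and edgeR adjusted p = 0.162) and 0.73 ± 0.19 for *Fcgr3* (unadjusted p = 0.00124 and edgeR adjusted p = 0.158). Neither passed in the edgeR fit, in which 18 genes, 0.151% of those tested, did. With the explant as a block *Fcgr2b* passed (edgeR adjusted p = 0.0489) and *Fcgr3* did not (0.0644). This block also matched same-numbered control libraries of the 2 subsets, which did not deviate together. In DESeq2 both passed (adjusted p = 0.0408 and 0.0393), among 97 genes. *Fcgr1* (0.40 ± 0.34), *Fcgrt* (0.17 ± 0.39), *Fcer1g* (-0.18 ± 0.20) and *Fcgr4* (-0.56 ± 0.80) had no detectable difference between their CGRP changes. The edgeR test thus called 0 members, and 2 members and 1049 of all tested genes had an unadjusted p under 0.05.

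Ratios of counts within a library, in which scaling cancels, give the balance between receptors and carry no test. *Fcgr3* counts were 1.02 to 1.07 times *Fcgr2b* counts in IAIE control and 1.13 to 1.20 times in IAIE CGRP libraries. In CD11c cells the range was 0.854 to 1.04 in control and 1.10 to 1.14 after CGRP. The ratio of activating to inhibitory low-affinity receptor was thus higher in every CGRP library, by 1.12-fold and 1.15-fold on average. The 0.854 was CD11c control library 1, beside 1.03 and 1.04 in CD11c control libraries 2 and 3. How the authors' counting treated shortened reads lying inside the identical run printed above is not stated. Their effect on the size of this ratio was not tested. The ratio of *Fcgr1* to *Fcgr2b* was 0.383 to 0.497 in IAIE control and 0.704 to 0.918 in IAIE CGRP libraries, without overlap. In CD11c cells it was 0.103 to 0.292 in control and 0.271 to 0.322 after CGRP, which overlapped. *Fcer1g* counts were 0.609 to 0.851 times *Fcgr3* counts in IAIE control and 0.366 to 0.556 times after CGRP. In CD11c cells they were 0.832 to 1.13 times in control and 0.312 to 0.360 times after CGRP, without overlap in either subset. Counts of the common chain per count of its partner *Fcgr3* were therefore lower in every CGRP library. *Fcgr4* counts were 0.00698 to 0.0469 times those of *Fcgr2b*, and all 4 groups overlapped.

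**Figure D3:**
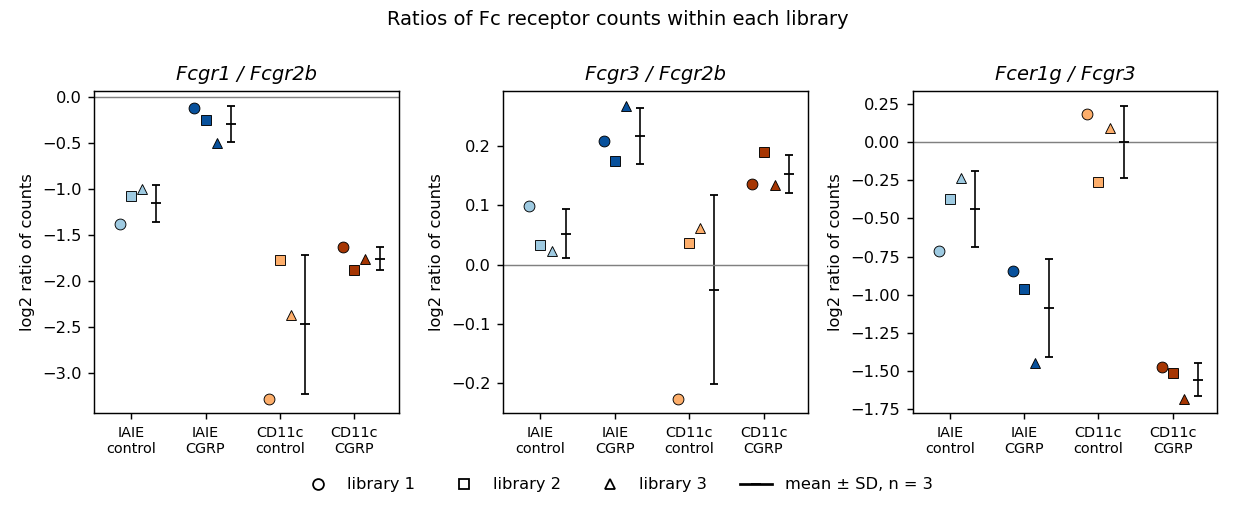
Log2 ratios of counts within each library for *Fcgr1* to *Fcgr2b*, *Fcgr3* to *Fcgr2b* and *Fcer1g* to *Fcgr3* (y axis, log2 scale; x axis, the 4 groups; symbols are libraries 1 to 3 and bars the mean ± SD, n = 3). The *Fcgr3* to *Fcgr2b* ratio is higher and the *Fcer1g* to *Fcgr3* ratio lower in every CGRP library than in the control libraries of the same subset, and CD11c control library 1 holds the lowest *Fcgr1* to *Fcgr2b* ratio, 0.103.

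Per kilobase of merged exons, levels can be ordered between genes. In IAIE control libraries *Fcer1g* led at 205 ± 12.9 CPM per kb, followed by *Fcgr3* (140 ± 15.5), *Fcgrt* (93.2 ± 13.4), *Fcgr2b* (40.5 ± 3.28) and *Fcgr1* (40.5 ± 2.40), with *Fcgr4* at 3.59 ± 1.13 (SD, n = 3). *Fcgr2b* and *Fcgr1* did not differ beyond their spread. In IAIE CGRP libraries *Fcgr3* (225 ± 30.3) and *Fcer1g* (211 ± 36.7) were not distinguishable, and *Fcgr1* (106 ± 14.0) stood above *Fcgrt* (60.0 ± 16.2) and *Fcgr2b* (57.8 ± 6.04), a pair within its spread. In CD11c control libraries *Fcer1g* (213 ± 12.5 CPM per kb) again led *Fcgr3* (108 ± 12.4), above *Fcgrt* (38.4 ± 9.23) and *Fcgr2b* (33.2 ± 3.85), a pair within its spread, and *Fcgr1* (14.6 ± 7.81). After CGRP the CD11c order was *Fcgr3* (285 ± 21.2), *Fcer1g* (193 ± 22.5), *Fcgr2b* (76.9 ± 7.15), *Fcgr1* (51.1 ± 9.09), *Fcgrt* (27.3 ± 14.8) and *Fcgr4* (3.81 ± 1.46 CPM per kb). The mean of *Fcgr4* lay between 3.59 and 4.60 CPM per kb in every group. With the longest transcript as length, *Fcgr2b* instead lay above *Fcgr1* in IAIE control libraries (66.2 against 40.5 CPM per kb), above *Fcgrt* in IAIE CGRP libraries (94.5 ± 9.86 against 71.3 ± 19.2), where it was within the spread of *Fcgr1* (106 ± 14.0), and its mean was above that of *Fcgrt* in CD11c control libraries (54.3 ± 6.29 against 45.6 ± 11.0). In IAIE CGRP libraries *Fcgr3* and *Fcer1g* were still within their spread (289.9 ± 39.1 and 270.2 ± 46.9).

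The genes whose levels followed each member most closely over the 12 libraries were ranked by Pearson correlation of log2(CPM + 1) among the 8463 genes that averaged 5 CPM or more. The 12 libraries fall into 4 groups and share depth differences, so these values are descriptive. *Fcgr2b* and *Fcgr3* were each other's first-ranked gene (r = 0.986). For *Fcgr3* the next were *Nap1l4* (0.966) and *Cd36* (0.947), a scavenger receptor, and for *Fcgr2b* they were *Nap1l4* (0.945) and *Adam10* (0.937), a membrane protease. *Cd36* rose by 0.76 ± 0.14 in IAIE and 1.50 ± 0.14 in CD11c cells on the log2 scale. *Fcgr1* was followed by *Tpd52* (0.965), *Ifi208* (0.964), an interferon-inducible gene of the Ifi200 family, and *Spire1* (0.963), an actin nucleator, and it ranked *Fcgr3* 399th and *Fcgr2b* 693rd. *Fcgrt* was followed by *Gas6* (0.975), a ligand of TAM receptors, *Cd209f* (0.969) and *Asah1* (0.969), the lysosomal acid ceramidase. For *Fcer1g* and *Fcgr4* the first-ranked genes were *Vwa8* (0.822) and *Hycc2* (0.872).

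Other genes of Fc receptor biology were read from 8 lists. Among 7 tested other Fc receptors, 3 rose and 1 fell with CGRP in each subset. Over all tested genes, 5.32% rose and 3.89% fell in IAIE cells and 6.29% rose and 4.59% fell in CD11c cells, the shares against which the counts of every list stand. *Trim21*, the cytosolic IgG receptor, rose by 2.51 ± 0.44 in IAIE and 2.21 ± 0.47 in CD11c cells on the log2 scale, and *Lgals3*, a lectin that binds IgE, by 0.63 ± 0.11 and 0.35 ± 0.11. *Fcrlb*, an Fc receptor-like gene of the same chromosome 1 region, rose by 1.99 ± 0.61 in CD11c cells, and by 3.52 ± 0.88 in IAIE cells where libraries of 0 to 1.55 CPM in control and 0.972 to 12.8 CPM after CGRP overlapped. *Fcrls* fell by 0.81 ± 0.25 in IAIE and by 1.17 ± 0.24 in CD11c cells. The list's median was 0.03 and 0.53 beside -0.02 and 0.00 over all tested genes.

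Among 29 tested genes that act downstream of the common chain, 0 rose and 6 fell in IAIE cells, and 3 rose and 7 fell in CD11c cells, with medians of -0.05 and -0.26. The Src-family kinase *Fgr* fell by 1.23 ± 0.22 and 1.83 ± 0.21 on the log2 scale in IAIE and CD11c cells, and *Fyn* by 0.53 ± 0.13 and 1.03 ± 0.13. *Plcg2*, the phospholipase that these receptors activate, fell by 0.68 ± 0.14 and 0.74 ± 0.14, and the adaptor *Blnk* by 0.60 ± 0.12 and 0.64 ± 0.12. *Syk* itself did not pass, with -0.02 ± 0.12 in IAIE and -0.27 ± 0.12 in CD11c cells (edgeR adjusted p = 0.963 and 0.160).

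Of 13 inhibitory phosphatases and adaptors, 0 rose and 1 fell in IAIE cells. The tyrosine phosphatase *Ptpn6* (SHP-1) fell by 0.81 ± 0.22 in IAIE cells and measured -0.39 ± 0.22 in CD11c cells (edgeR adjusted p = 0.330). *Inpp5d*, the partner of FcγRIIB, did not pass in either subset (-0.00 ± 0.13 and 0.23 ± 0.13). Of 14 other inhibitory receptors, 1 rose and 1 fell in IAIE cells, and 1 rose and 3 fell in CD11c cells, against 9.21% and 10.9% of all tested genes called in either direction. *Lilrb4a* fell by 0.64 ± 0.14 in IAIE and 0.64 ± 0.15 in CD11c cells, *Cd300a* by 0.85 ± 0.16 and *Clec12a* by 1.49 ± 0.32 in CD11c cells, and *Cd200r1*, the receptor for CD200, rose by 0.96 ± 0.18 in IAIE cells.

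Among 15 receptors and adaptors that use the common chain or the related adaptor *Tyrobp* (DAP12), 2 rose in each subset, and 1 fell in IAIE and 2 in CD11c cells, against 9.21% and 10.9% of all tested genes called. *Clec4n* (Dectin-2) rose by 1.16 ± 0.19 in IAIE and 2.22 ± 0.18 in CD11c cells, and *Clec4d* by 0.99 ± 0.13 and 0.94 ± 0.13; both encode C-type lectins that signal through the common chain. *Tyrobp* fell by 0.69 ± 0.14 in CD11c cells, and *Lilra6* by 2.86 ± 0.66 in IAIE cells from a low level (8.31 to 11.8 CPM in control). Of 24 genes of the phagocytic cup and its actin, 2 rose and 2 fell in IAIE cells, and 1 rose and 5 fell in CD11c cells, beside 3.89% and 4.59% of all tested genes that fell. *Dock2*, an activator of Rac, fell by 0.85 ± 0.14 and 1.78 ± 0.14, *Myo1f* by 0.84 ± 0.16 in CD11c cells, and *Arpc3*, a subunit of the Arp2/3 complex, rose by 0.62 ± 0.13 and 0.44 ± 0.12. *Nckap1l*, a subunit of the WAVE complex of blood cells, rose by 0.55 ± 0.12 in IAIE cells. Its CD11c value of 0.32 ± 0.12 missed the threshold.

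Of 6 tested genes of IgG recycling, only *B2m*, the light chain that FcRn shares with MHC class I, passed in either subset, with a rise of 0.45 ± 0.13 in IAIE and 0.48 ± 0.13 in CD11c cells, beside the lower values of *Fcgrt*. Among 15 regulators known to act at Fc receptor genes, 4 rose and 4 fell in IAIE cells, and 5 rose and 0 fell in CD11c cells, against 9.21% and 10.9% of all tested genes called. *Irf9*, a factor of the interferon response, rose by 1.40 ± 0.22 and 1.32 ± 0.22 on the log2 scale, and *Irf2* by 0.50 ± 0.15 and 0.82 ± 0.15. *Spi1*, which encodes PU.1, did not pass (-0.27 ± 0.12 and -0.28 ± 0.12, edgeR adjusted p = 0.209 and 0.186). *Nfkb1*, a subunit of NF-κB, fell by 0.96 ± 0.11 in IAIE cells (edgeR adjusted p = 1.78e-05) and measured -0.07 ± 0.11 in CD11c cells (edgeR adjusted p = 0.782). In IAIE and CD11c cells, the median log2 change was -0.22 and 0.02 for the phosphatases and adaptors, -0.35 and -0.53 for the other inhibitory receptors, and -0.28 and -0.14 for the receptors that pair with the common chain or *Tyrobp*. It was -0.06 and 0.01 for the phagocytic cup, 0.14 and 0.23 for IgG recycling and -0.14 and -0.02 for the regulators, beside -0.02 and 0.00 over all tested genes.

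**Figure D4:**
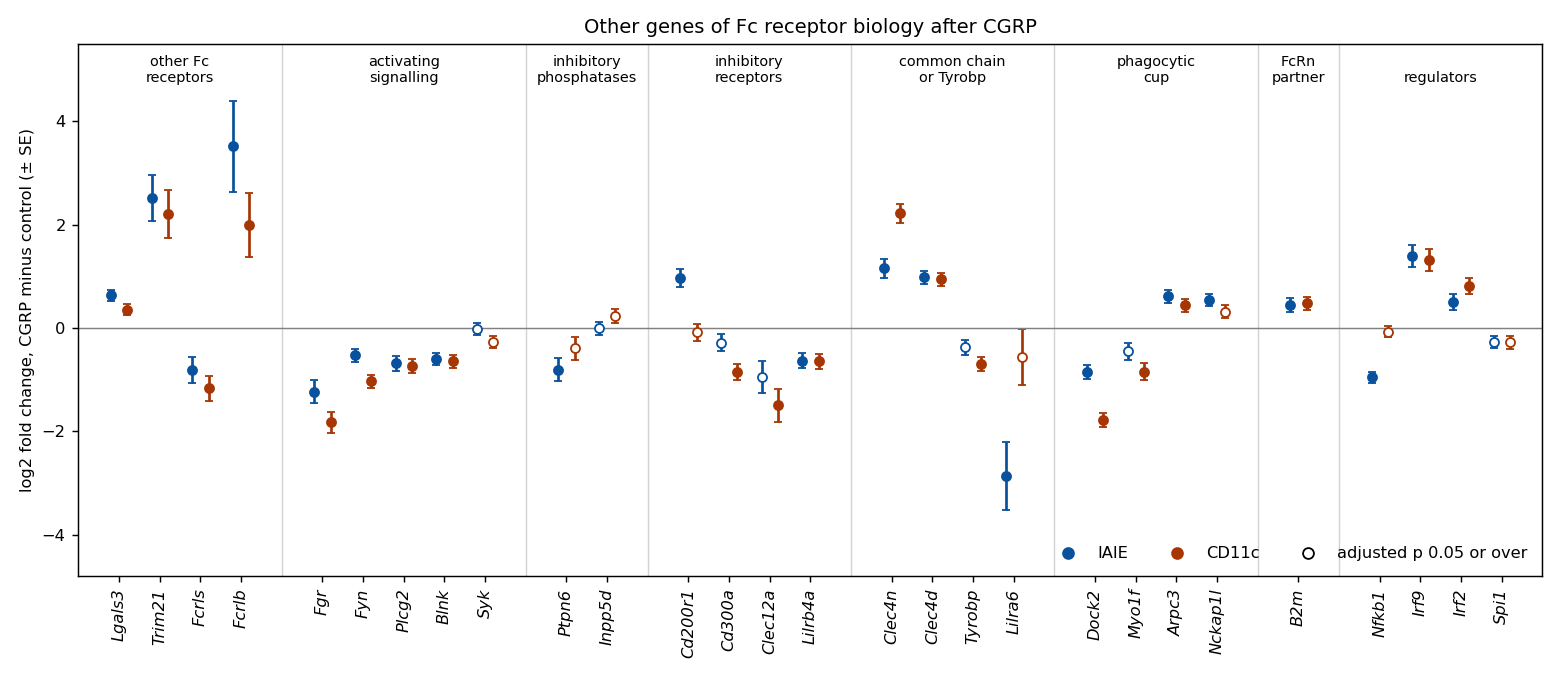
Log2 fold change with CGRP (y axis, ± SE) of the named genes of 8 lists of Fc receptor biology (x axis), in IAIE cells (blue) and CD11c cells (brown); open points had an edgeR adjusted p of 0.05 or over. *Trim21*, *Clec4n*, *Clec4d* and *Irf9* lie above 0 and *Fgr*, *Fyn*, *Plcg2*, *Blnk* and *Dock2* below 0 in both subsets.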

How the data were processed

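RNA from sorted synovial macrophages was prepared with a stranded low-input total RNA kit and sequenced as read pairs. The authors trimmed reads with Trim Galore, checked them with FastQC, used HISAT2 for alignment to mm10, and obtained gene counts with featureCounts. Versions, annotation and strand setting are not given in the sources used here. The deposited values are raw counts per gene symbol, not normalized, and 6 columns of the combined table that matched no sample were not used.

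Genes were filtered with filterByExpr (minimum count 10, minimum total 15), scaled by TMM, and fitted in R 4.3.3 with edgeR 4.0.16 (quasi-likelihood test, two-sided) with 1 mean for each of the 4 groups over all 12 libraries. Adjusted p is Benjamini-Hochberg over 11927 genes, with a threshold of 0.05, and the fit was tested on simulated data. The biological coefficient of variation was 0.256, and no library pair held identical counts. The study's own test (DESeq2, here 1.42.0, and sva 3.50.0), limma-voom (limma 3.58.1), other scalings, filters, blocks and left-out libraries were alternatives. GC content and length offsets and a surrogate variable from unscaled counts were added after seeing the data.

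The 6 members and the gene lists were chosen with earlier results of these data known. Of each list, up to 4 genes past the threshold with the smallest p in a CGRP comparison are named, with *Syk*, *Inpp5d*, *Ptpn6*, *Tyrobp*, *B2m* and *Spi1* whatever their values, the sort markers, and the 3 genes most correlated with each member (symbols starting Gm and a digit or ending Rik left out). Of the genes this rule names, 2 are not reported here. CPM used TMM-scaled totals, and ratios added 0.5 to each count. Lengths and positions came from GENCODE M21 (GRCm38). The labels number the libraries 1 to 3 in each group. Over 5411 genes, the distances of same-numbered IAIE and CD11c libraries from their group means correlated at 0.330, 0.107 and 0.178 with CGRP. In control they correlated at 0.0581, 0.0139 and -0.00840. Pairs of different numbers ran from -0.251 to 0.0793 with CGRP and from -0.0802 to 0.0877 in control. Same-numbered pairs thus lay above all others with CGRP only. Whether same-numbered libraries shared an explant was not tested. The explant block nonetheless took a shared number as a shared explant in control as well as with CGRP.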

Additional observations from a re-analysis of the deposited data

Results flagged for a closer look

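Among 53 results examined, the effect of 3 genes differed between the subsets or changed sign. The CD11c minus IAIE difference of *Fcgr2b* was -0.29 ± 0.13 (log2, SE) in control and 0.41 ± 0.13 after CGRP, and that of *Fcgr3* was -0.38 ± 0.14 and 0.34 ± 0.13, with no overlap of libraries in either condition. The difference between the CGRP changes was 0.70 for *Fcgr2b* and 0.73 for *Fcgr3*, and neither passed the test (edgeR adjusted p = 0.162 and 0.158). *Nfkb1*, a subunit of NF-κB, had a difference of 0.88 ± 0.16 between the CGRP changes that passed (edgeR adjusted p = 0.0180): its mean level went from 879 ± 24.3 to 453 ± 27.9 CPM in IAIE cells and from 1093 ± 23.3 to 1040 ± 115 CPM in CD11c cells (SD, n = 3).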

How the results depend on the processing

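Of 727 values of the 6 genes under alternative settings, 687 kept their direction and side of the threshold, 14 lost the threshold, 14 passed it anew and 12 changed sign. The calls of *Fcgr1* in all 4 pairwise comparisons, of *Fcgr2b* and *Fcgr3* with CGRP in CD11c cells and of *Fcgrt* between control subsets held under every setting run. Testing against a log2 change of 0.5 left 318 genes in IAIE cells with 1 member, 520 in CD11c cells, 1074 between control subsets and 908 between CGRP subsets with 1 member; the alternative is stricter by construction. The 18 genes whose CGRP change differed between subsets became 42 at an adjusted p under 0.1, 171 with every gene of at least 1 count, 5 with at least 10 counts in every library, 36 with the replicate block, 52 with the explant as a replicate block (1 member), 38 with 1 surrogate variable, 97 in DESeq2 (2 members) and 2 in limma-voom; the cause was not tested. Beyond the blocked values given with the results, neither block changed another call of a member, except *Fcgr3* between control subsets with the explant as block (edgeR adjusted p = 0.0263), where same-numbered libraries did not deviate together. Leaving out 1 library gave 722 to 1122 genes and 2 to 3 members in IAIE cells, with the lowest gene count without IAIE CGRP library 2. It gave 929 to 1377 genes and 3 to 4 members in CD11c cells, 2032 to 2532 genes between control subsets, 1456 to 2104 genes and 1 to 3 members between CGRP subsets (1 member without CD11c CGRP library 3), and 6 to 29 genes for the difference between changes (6 without IAIE CGRP library 2 or CD11c control library 3, and 29 without CD11c CGRP library 2). *Fcgrt* with CGRP in IAIE cells also passed with every gene of at least 1 count (edgeR adjusted p = 0.0178) and with the compared libraries alone (0.0358), and *Fcgr3* between CGRP subsets in limma-voom (adjusted p = 0.0204). Signs turned only in values that had not passed. *Fcer1g* in IAIE cells was -0.0070 under upper-quartile scaling, -0.13 with GC content and length offsets, and -0.093 to 0.14 when 1 library was left out. Between control subsets it was -0.019 with 1 surrogate variable and -0.25 with GC content and length offsets, and between CGRP subsets -0.22 to 0.020 when 1 library was left out. Leaving out 1 library gave *Fcgr4* -0.60 to 0.13 with CGRP in CD11c cells and -0.63 to 0.066 between CGRP subsets, and *Fcgrt* -0.43 to 0.37 for the difference between changes. Depth limits *Fcgr4* most, with 5 to 36 counts in a library.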

Other observations

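Within 250 kb of the chromosome 1 receptor genes, 19 other genes were tested. With CGRP, 2 of these neighbours rose in IAIE and 3 in CD11c cells and 0 fell, against 9.21% and 10.9% of all tested genes called in either direction. Besides *Fcrlb*, *F11r*, which encodes the junctional adhesion molecule JAM-A, rose by 1.50 ± 0.34 on the log2 scale (SE) in IAIE cells (edgeR adjusted p = 0.00643) and by 1.59 ± 0.32 in CD11c cells (edgeR adjusted p = 0.00234), and *Pcp4l1* rose by 5.33 ± 1.46 in CD11c cells (edgeR adjusted p = 0.0221), where the libraries overlapped.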
